A study of Mus musculus with 23 samples.

Results

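The nuclear genes of oxidative phosphorylation were followed complex by complex in mouse hindlimb muscle after spaceflight, after hindlimb suspension and after a short return to weight bearing. Members were the genes whose symbol in the platform's annotation table starts with Nduf (complex I), is Sdha, Sdhb, Sdhc or Sdhd (complex II), or starts with Uqcr (complex III), Cox4 to Cox8 (complex IV) or Atp5 (complex V). Only probe sets with a single gene symbol were used, and a gene with several was represented by the one with the highest mean log2 signal. The rule found 84 of the 12393 genes on the array: 39 for complex I, 4 for complex II, 8 for complex III, 16 for complex IV and 17 for complex V. Of these, 82 passed the filter on low signal and were tested, among 9133 tested genes. The other 2, Cox6b2 and Cox7c, lay below the filter on all 23 arrays. The name rule puts 5 assembly factors (Ndufaf) and Ndufa4, now placed with cytochrome c oxidase, under complex I, and it finds none of the subunits encoded by mitochondrial DNA.

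All animals were female C57BL/6J mice aged 77 days, and each sample is 1 Affymetrix array of total RNA from muscle. In the flight experiment, gastrocnemius was taken from mice flown for 11 days and 19 hours (spaceflight, n = 4) and from ground mice that spent as long in an animal enclosure module (AEM, n = 4). In the suspension experiment, calf muscle was taken from untreated mice (control, n = 5), from mice suspended by the tail for 12 days so that the hindlimbs bore no weight (suspension, n = 5), and from mice suspended for 12 days and then let down for 3.5 hours (reloaded, n = 5). The labels name no separation of fibre types or cells, so each value is a mean over all cells of the piece. The free-text descriptions of the AEM and spaceflight samples are exchanged with respect to their titles, source names and the series design, which were followed here. Were the descriptions the correct ones, all flight differences given here would change sign.

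Oxidative phosphorylation is the last stage of aerobic energy supply. Complex I takes electrons from NADH and complex II from succinate, ubiquinone carries them to complex III, cytochrome c carries them on to complex IV, and there they reduce oxygen. Complexes I, III and IV pump protons across the inner mitochondrial membrane, and complex V, the ATP synthase, uses the proton gradient to make ATP. In muscle these proteins are most abundant in slow and fast oxidative fibres, and their amount follows contractile activity. Many of their nuclear genes have start sites rich in CpG and carry binding sequences of the factors NRF1, GABP (an ETS factor) and YY1.

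Promoter windows from RefSeq (GRCm38.p6, 250 bases before to 50 after a gene's start) matched 70 of the 84 members by gene ID. Atp5a1, Atp5mpl, Cox4i1, Cox4i2, Cox6a2, Cox6c, Cox8c, Ndufa2, Ndufb9, Ndufs1, Sdhc, Uqcrb, Uqcrc2 and Uqcrq had no entry. On either strand, the NRF1 core element with a pyrimidine at its degenerate base was found in 10 of the 70 members (14.3%) and in 2.56% of the 27025 genes in the table; with any base there it was in 16 members (22.9%) and 5.19% of genes. The ETS sequence CCGGAAG was found in 18 members (25.7%) against 9.93% of all genes, and the YY1 sequence AAGATGG in 10 members (14.3%) against 7.28%. These forms of the NRF1 and YY1 motifs were set after matches of other forms had been seen. Matches of different motifs overlapped in 0 members. TATAAA was found in 7 members (10.0%) against 15.7% of all genes. NRF1 matches were found in 4 of 15 members of complex V, 3 of 36 of complex I and 1 of 11 of complex IV, and ETS matches in 6, 5 and 3 of them. A match is a run of letters, not a shown binding site.

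The 150 bases before the start are given for 1 or 2 members per complex whose signal is described below, chosen to show the contrast between windows with and without these letters. They are written 5′ to 3′ on the gene's strand, with NRF1 and ETS matches in capitals. Ndufb5 (chr3:32736913-32737062, plus strand) had the lowest adjusted p of all members in the flight comparison. Ndufaf4 (chr4:24897933-24898082, plus strand) had the lowest p of complex I on reloading. Sdhd (chr9:50603850-50603999, minus strand), Uqcrfs1 (chr13:30545317-30545466, minus strand), Cox7a1 (chr7:30184021-30184170, plus strand) and Atp5h (chr11:115419920-115420069, minus strand) had the lowest p of complexes II, III, IV and V in at least 1 comparison.
Ndufb5: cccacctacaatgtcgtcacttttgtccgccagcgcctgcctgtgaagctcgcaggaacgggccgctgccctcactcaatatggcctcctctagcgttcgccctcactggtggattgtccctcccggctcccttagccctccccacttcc
Ndufaf4: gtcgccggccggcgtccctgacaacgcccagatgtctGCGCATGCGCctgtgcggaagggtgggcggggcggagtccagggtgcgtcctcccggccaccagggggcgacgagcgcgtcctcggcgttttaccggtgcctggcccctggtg
Sdhd: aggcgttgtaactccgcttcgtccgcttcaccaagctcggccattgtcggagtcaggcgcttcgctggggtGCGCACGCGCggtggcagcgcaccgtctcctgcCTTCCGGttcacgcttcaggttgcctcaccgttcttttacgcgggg
Uqcrfs1: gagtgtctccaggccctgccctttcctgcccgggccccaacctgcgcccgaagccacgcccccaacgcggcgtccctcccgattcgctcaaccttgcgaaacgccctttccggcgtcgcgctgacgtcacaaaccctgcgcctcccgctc
Cox7a1: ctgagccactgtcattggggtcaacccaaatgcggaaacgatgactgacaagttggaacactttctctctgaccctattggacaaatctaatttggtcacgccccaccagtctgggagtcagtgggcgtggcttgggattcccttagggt
Atp5h: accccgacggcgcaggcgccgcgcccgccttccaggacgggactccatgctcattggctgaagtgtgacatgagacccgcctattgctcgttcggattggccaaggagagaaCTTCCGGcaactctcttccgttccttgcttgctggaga
Sdhd holds an NRF1 and an ETS match, Ndufaf4 an NRF1 match and Atp5h an ETS match, and the stretches of Ndufb5, Uqcrfs1 and Cox7a1 hold neither. Among members with a window, the median log2 difference of the 25 tested ones with an NRF1 or ETS match and of the 43 without was -0.06 and -0.10 in flight, -0.10 and -0.11 in suspension, and -0.11 and -0.10 between reloaded and control muscle. Both medians lay below 0 in these 3 comparisons. Between reloaded and suspension muscle they were -0.0034 with a match and 0.028 without. No test was made between members with and without a match.

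Array range, the distance between the 25th and 75th percentile of log2 signal, was 2.75 to 2.91 in the flight experiment and 2.21 to 2.46 in the suspension experiment, so levels were compared only within an experiment. Suspension replicate 8 had the narrowest range, 2.21, and lay below the mean of the other suspension arrays in 67 of 82 members against 4581 of 9133 tested genes. Without it, the suspension difference came over 1.5 times nearer to 0 in 37 of 82 members, moved as far the other way in 2 and changed sign in 4. Suspension differences of members described below that it moves by over 1.5 times are also given without it. Values on reloading and in the difference of the flight and suspension effects are given without it only in part. The summed signal of 9 skeletal muscle markers was 16.5 to 16.7 on the log2 scale on all arrays. Of the marker lists, Scx (fibroblast and tendon) and Hba-a1 and Slc4a1 (erythroid) lay below the filter on low signal and were not tested. Other cell and fibre markers moved with the groups. In flight, all 7 adipocyte markers were higher and 5 passed the test; their summed log2 signal was 12.1 to 12.3 in AEM and 12.5 to 12.9 in spaceflight. Of 8 tested fibroblast and tendon markers, 7 were lower in flight and 3 passed (summed log2 signal of the list 11.8 to 12.7 in AEM and 11.4 to 11.9 in spaceflight). In suspension, all 10 slow fibre markers were lower and 3 passed, and their summed log2 signal was 15.1 to 15.3 in control and 14.6 to 14.9 in suspension. Fibroblast and tendon markers were lower in suspension in 8 of 8 genes (median -0.47, none called, 7 at an unadjusted limma p under 0.05), and on suspension replicates 8 and 9 they lay below the mean of the other suspension arrays in 8 and 7 of 8. All 7 adipocyte markers were higher in suspension (median 0.53, none called, 5 at an unadjusted limma p under 0.05). The Schwann cell list had 5 of 5 members higher in suspension, of which Mbp passed. On reloading, all 8 fibroblast and tendon markers were higher (median 0.36, Thbs4 called) and all 7 adipocyte markers lower (median -0.25, none called). Endothelial and macrophage sums overlapped between the compared groups. Single markers passed lower in flight: endothelial Kdr (-0.32 ± 0.08, limma adjusted p = 0.033), slow fibre Myl2 (-0.42 ± 0.10, 0.0236) and erythroid Alas2 (-0.28 ± 0.07, 0.0405). Their lists did not move as a whole: 5 of 8 endothelial markers (median 0.05) and 5 of 10 slow fibre markers (median -0.03) were above 0 in flight. Alas2 was the 1 erythroid marker tested. The part of these markers in the results below was not tested.

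The first comparison asks how the complexes stood in gastrocnemius after spaceflight. Most members were slightly lower in flown muscle in every complex. Of the 82, 63 were below 0, against 53.0% of all tested genes, and the median log2 difference was -0.09, which is 5.88% lower on the linear scale, against -0.01 over all genes. A single member passed the test, Ndufb5 in complex I, where 5.64% of all tested genes passed in either direction and 2.46% passed lower. By the coarser measure of separated groups, 20 members (24.4%) had all 4 spaceflight values below all 4 AEM values, against 6.00% of all tested genes, and none had them all above, against 6.38%. An unadjusted limma p under 0.05 with a lower value was found in 15 members (18.3%), against 9.60% of all genes. The median was -0.09 in complex I, -0.13 in complex II, -0.08 in complex III, -0.09 in complex IV and -0.06 in complex V. Leaving out 1 array at a time kept the member median between -0.10 and -0.06 and the count below 0 between 58 and 64. The 15 of 82 members at an unadjusted p under 0.05 became 9 without AEM replicate 1, 3 or 4 and 8 without spaceflight replicate 10 or 11. In these fits 7.70% to 9.72% of all genes were lower at this p, and the share of members lay nearer to that of all genes than with all arrays. The median of complex II became -0.09 without spaceflight replicate 11.

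**Figure D1:**
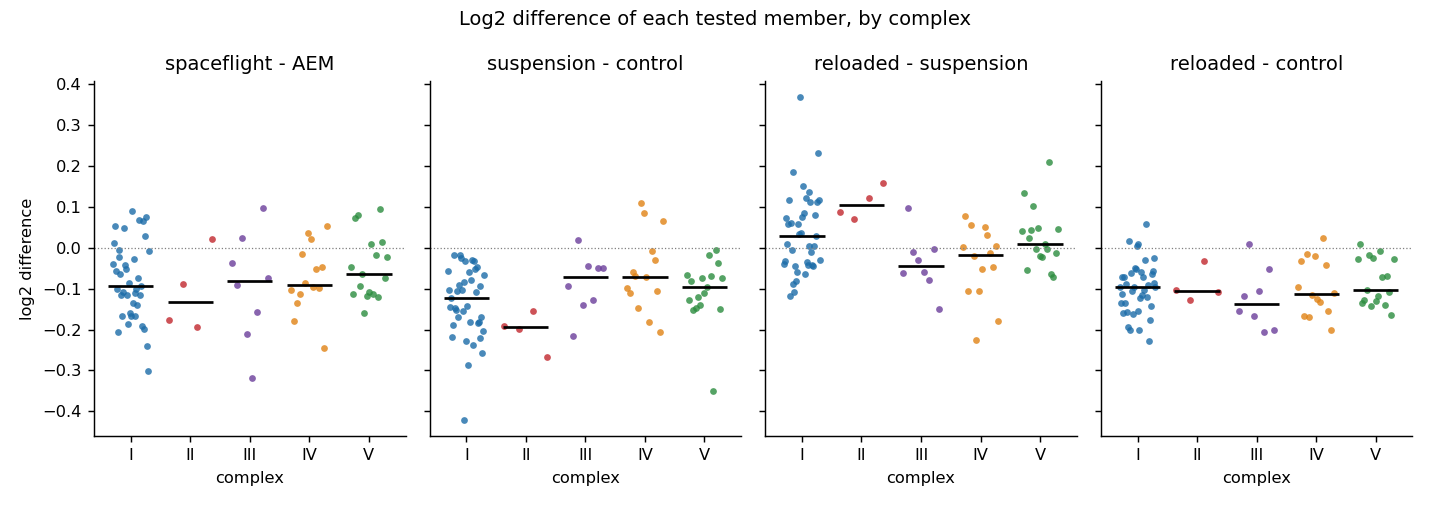
Log2 difference of each of the 82 tested members (points) by complex (x axis) in the 4 comparisons of groups (panels), with the median of each complex as a black bar. In flight, suspension and reloaded against control most points lie below 0 in all 5 complexes, and between reloaded and suspension they scatter around 0 with a median of 0.00.

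Ndufb5 encodes an accessory subunit in the membrane arm of complex I. Its log2 signal was 11.86, 11.86, 12.02 and 12.01 in AEM replicates 1 to 4 and 11.75, 11.62, 11.58 and 11.59 in spaceflight replicates 8 to 11. All spaceflight arrays lay below all AEM arrays. The log2 difference was -0.30 ± 0.08 (SE; means 11.94 ± 0.09 and 11.64 ± 0.08, SD, n = 4 each), which is 18.8% lower, with a limma adjusted p of 0.0405. The call was lost when any of AEM 3, AEM 4, spaceflight 9, 10 or 11 was left out (adjusted p 0.0874 to 0.113) and with no filter on low signal (0.0534), with the mean of the gene's probe sets (0.0526), with quantile normalization (0.052) and with array range as a covariate (0.0846). A second probe set of Ndufb5 gave -0.19 ± 0.10.

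Uqcrc2, a core protein of complex III, had the largest difference of the members. Its signal was 11.04, 11.11, 10.89 and 10.86 in AEM and 10.72, 10.77, 10.63 and 10.50 in spaceflight. The groups did not overlap, and the log2 difference of -0.32 ± 0.09 narrowly missed the threshold (limma adjusted p = 0.0503). Its second probe set gave -0.27 ± 0.09. It was among the members called after quantile normalization (adjusted p = 0.0251), after a stricter filter (0.0414), and in the fit of all 23 arrays (0.0132). The sizes differed little between these fits, and the adjusted p lay on both sides of 0.05.

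Cox7a1, the muscle and heart form of a small subunit of cytochrome c oxidase, was 10.95, 10.99, 10.86 and 10.91 in AEM and 10.70, 10.65, 10.76 and 10.61 in spaceflight. The groups were separate, with a log2 difference of -0.25 ± 0.07 (adjusted p = 0.0691). Atp5h, a subunit of the peripheral stalk of ATP synthase, was 11.85, 11.81, 11.77 and 11.84 in AEM and 11.71, 11.67, 11.70 and 11.55 in spaceflight (difference -0.16 ± 0.07, adjusted p = 0.236). These groups also did not overlap, without passing the test.

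Within complex I, 31 of 39 members were below 0 in flight and 11 had separate groups. The electron-input arm, which oxidises NADH, had a median of -0.10 over 9 members. Its iron-sulphur subunit Ndufs1 was 11.46, 11.41, 11.55 and 11.65 in AEM and 11.30, 11.41, 11.23 and 11.33 in spaceflight (-0.20 ± 0.08, adjusted p = 0.18). Ndufv1, the flavoprotein that binds NADH, differed by -0.17 ± 0.07 (adjusted p = 0.202), also without overlap. The membrane arm had a median of -0.09 over 19 members, 16 of them below 0, and the ubiquinone-binding arm one of -0.05 over 5. The assembly factor Ndufaf4 was 9.03, 8.71, 8.71 and 8.72 in AEM and 8.51, 8.40, 8.68 and 8.61 in spaceflight (-0.24 ± 0.09, adjusted p = 0.18). No overlap was seen, although AEM replicate 1 stood above its group.

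Complex II, succinate dehydrogenase, had no member with separate groups in flight. The flavoprotein Sdha differed by -0.18 ± 0.09 (adjusted p = 0.282), the iron-sulphur subunit Sdhb by -0.09 ± 0.08 and the membrane anchors Sdhc and Sdhd by -0.19 ± 0.09 and 0.02 ± 0.08. The second probe set of Sdha had the opposite sign (0.08 ± 0.11), so the flight value of Sdha depends on the probe set. In complex III the other core protein, Uqcrc1, differed by -0.07 ± 0.08 and the Rieske protein Uqcrfs1 by -0.09 ± 0.07, both within the spread of the arrays. The small subunits Uqcrq (-0.21 ± 0.07) and Uqcr11 (-0.16 ± 0.07), named after their values were seen, had separate groups. In complex V the catalytic subunits Atp5a1 and Atp5b differed by -0.05 ± 0.07 and -0.06 ± 0.07. The c-ring gene Atp5g3 was separate between groups at -0.11 ± 0.07 (adjusted p = 0.396), and 5 of 17 members of this complex lay above 0.

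**Figure D2:**
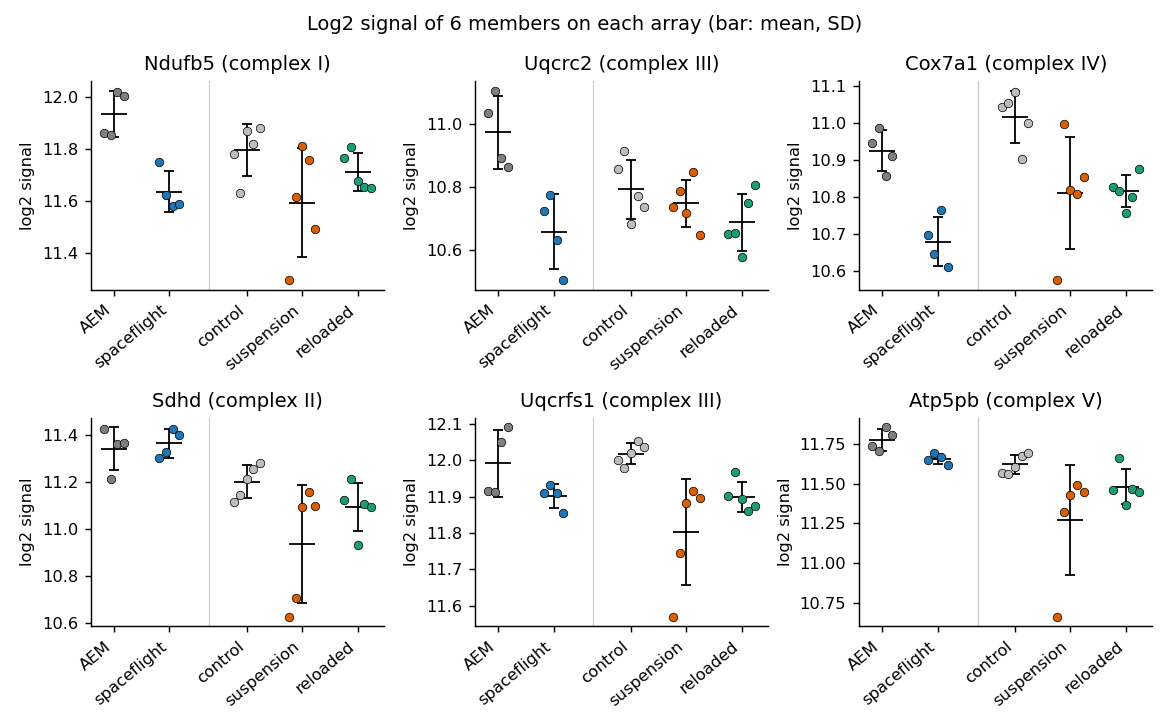
Log2 signal (y axis) of 6 members on each array (points) by group (x axis), with mean and SD; y axes differ between panels and do not start at 0. Spaceflight lies below AEM without overlap for Ndufb5, Uqcrc2, Cox7a1 and Atp5pb, and suspension replicate 8 is the lowest suspension array for Ndufb5, Cox7a1, Sdhd, Uqcrfs1 and Atp5pb.

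Suspension was compared with control to ask how the complexes stood in muscle that had borne no weight on the ground. Here the direction was nearly uniform and the sizes were small. Of the 82 members, 78 were below 0, against 49.1% of all tested genes, including all 39 of complex I, all 4 of complex II and all 17 of complex V. The median log2 difference was -0.11, or 7.12% lower, against 0.00 over all genes. None passed the test, where 0.372% of all tested genes passed in either direction; an unadjusted limma p under 0.05 with a lower value was found in 22 members (26.8%), against 5.04% of all genes. Limma with a variance trend and robust estimation also called none (28 at an unadjusted p under 0.05 and lower, against 5.28% of all genes). In 7 members (8.54%) all 5 suspension values lay below all 5 control values, against 1.34% of all genes, and in none above, against 0.701%. Without suspension replicate 9 there were 16 such members, against 2.14% of all genes. The 22 members became 13 without suspension replicate 8, against 3.72% of all genes, 12 without control replicate 22, against 3.59%, and 6 without suspension replicates 8 and 9, against 4.69%.

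The complexes differed in their medians: -0.12 in complex I, -0.19 in complex II, -0.07 in complexes III and IV and -0.10 in complex V. These values depend on 1 or 2 arrays and on scaling. Without suspension replicate 8 the member median was -0.08 with 76 below 0, and without replicates 8 and 9 it was -0.06 with 75 below 0. The medians of complexes I to V were -0.08, -0.14, -0.07, -0.03 and -0.07 without replicate 8. With quantile normalization it was -0.04 with 59 below 0. Slow fibre markers were lower in the same comparison (median log2 difference -0.39 over 10 genes), as were fibroblast and tendon markers (-0.47 over 8), and fewer cells or fibres of a type cannot be told apart from less RNA per cell in these bulk samples. Their part in the result was not tested.

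Complex II had the lowest median with all arrays. Without suspension replicates 8 and 9 its median was -0.072, between complex III at -0.079 and complex I at -0.066. The score of complex II on an array, the median deviation of its 4 genes from the control mean, was -0.45 in suspension replicate 8, -0.32 in replicate 9 and between -0.10 and -0.07 in the other 3. Control arrays lay between -0.10 and 0.07. Sdhd, a membrane anchor, was 11.12, 11.14, 11.21, 11.26 and 11.28 in control and 10.63, 10.71, 11.10, 11.16 and 11.10 in suspension. Replicates 8 and 9 stood apart; of the others, replicate 25 lay inside the control range and replicates 11 and 30 just below it. The difference was -0.27 ± 0.10 (adjusted p = 0.367), and it was -0.19 ± 0.09 without replicate 8 and -0.09 ± 0.07 without replicates 8 and 9. The same order was found for Sdha, at 11.56, 11.60, 11.73, 11.75 and 11.70 in control and 11.22, 11.34, 11.74, 11.60 and 11.49 in suspension (-0.19 ± 0.08, and -0.13 ± 0.08 without replicate 8). Sdhb differed by -0.20 ± 0.07 and Sdhc by -0.15 ± 0.09, the latter by -0.08 ± 0.08 without replicate 8. The second probe set of Sdhd gave -0.09 ± 0.11.

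**Figure D3:**
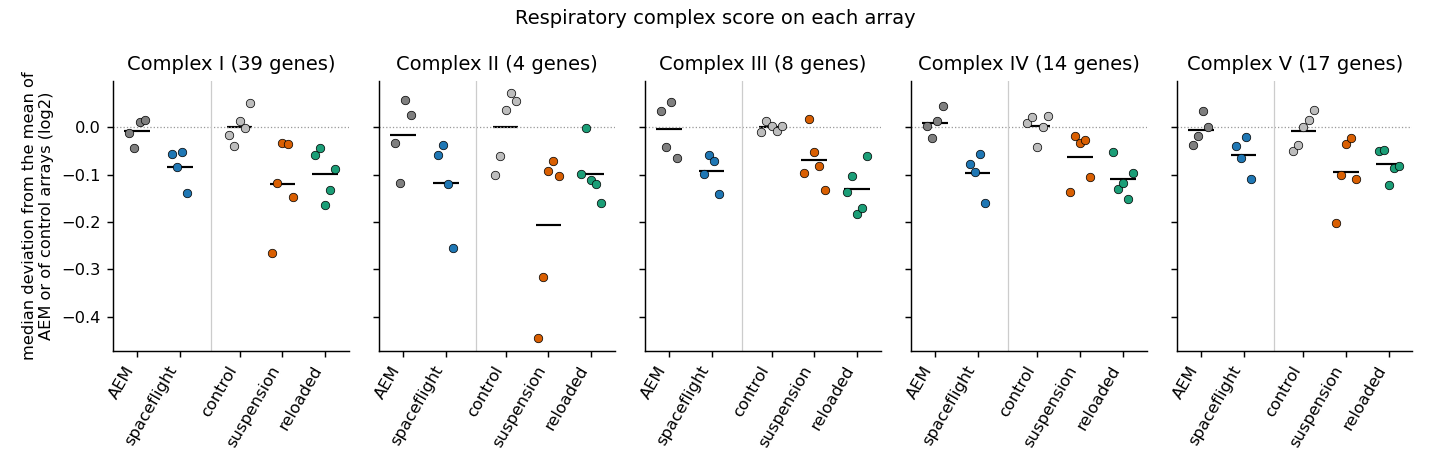
Complex score on each array (points; median over the tested genes of a complex of the deviation from the mean of AEM or control arrays, log2) by group, with group means as bars. In complex II, suspension replicates 8 and 9 lie at -0.45 and -0.32, far below the other suspension arrays, and in complexes I, III and IV all reloaded arrays lie below all control arrays.

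In complex I the mean score was 0.00 ± 0.03 (SD, n = 5) in control and -0.12 ± 0.10 in suspension, with replicate 8 at -0.27. Ndufab1, the mitochondrial acyl carrier protein, had the lowest p of the complex. It was 11.14, 11.03, 11.15, 11.16 and 11.12 in control and 10.37, 11.11, 10.87, 10.94 and 10.86 in suspension (-0.29 ± 0.10, adjusted p = 0.334). Replicate 8 was the lowest and replicate 9 lay within the control range; without replicate 8 the difference was -0.17 ± 0.07. Another Ndufab1 probe set above the filter gave 0.02 ± 0.07, so its value depends on the probe set. Ndufs1 was 11.17, 11.14, 11.22, 11.12 and 11.24 in control and 10.64, 10.93, 11.08, 11.10 and 11.03 in suspension, a difference of -0.22 ± 0.08 (adjusted p = 0.354) without overlap, and -0.14 ± 0.06 without replicate 8. The assembly factors had the lowest median within complex I, -0.18 over 5 members, all below 0. Their score ran from -0.37 in suspension replicate 8 to 0.06 in replicate 11. Without replicates 8 and 9 their differences were -0.06, -0.17, -0.20, -0.04 and -0.0011, beside a complex I median of -0.066. Of the assembly factors, Ndufaf3 had separate groups, with 7.92, 7.87, 7.95, 7.85 and 7.88 in control and 7.70, 7.68, 7.85, 7.78 and 7.54 in suspension (-0.18 ± 0.08, adjusted p = 0.494). Ndufb10, a membrane-arm subunit named after its values were seen, had the largest difference, -0.42 ± 0.16, with suspension replicate 8 at 9.42 and the other suspension arrays between 10.02 and 10.55; without replicate 8 it was -0.24 ± 0.11.

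Uqcrfs1, the Rieske iron-sulphur protein of complex III, had the lowest adjusted p of all members in suspension. It was 12.00, 11.98, 12.02, 12.05 and 12.04 in control and 11.57, 11.75, 11.88, 11.92 and 11.90 in suspension. The groups did not overlap, and the difference was -0.22 ± 0.07 (13.9% lower; limma adjusted p = 0.302). The core proteins Uqcrc1 and Uqcrc2 differed by -0.05 ± 0.07 and -0.04 ± 0.07. For Uqcrc2 the second probe set gave -0.20 ± 0.09, so the probe sets of this gene disagree in size.

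In complex V, Atp5pb, subunit b of the peripheral stalk, was 11.57, 11.56, 11.60, 11.67 and 11.69 in control and 10.66, 11.32, 11.43, 11.49 and 11.45 in suspension. All suspension arrays were below all control arrays, with replicate 8 far below the rest, and the difference was -0.35 ± 0.12 (adjusted p = 0.314), or -0.20 ± 0.07 without it. Its second probe set gave -0.09 ± 0.11. Atp5h differed by -0.14 ± 0.07 and Atp5g3 by -0.13 ± 0.07. The catalytic subunits Atp5a1 and Atp5b differed by -0.07 ± 0.07 and -0.12 ± 0.09, within the spread of the arrays, and Atp5b by -0.05 ± 0.08 without replicate 8.

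Complex IV was the mixed one, with 11 of 14 members below 0 in suspension. The 3 above 0 were Cox4i2, an isoform of subunit 4 best known from lung (0.11 ± 0.09), and the ubiquitous isoforms Cox6a1 (0.08 ± 0.11) and Cox8a (0.07 ± 0.08); without suspension replicate 8 these were 0.02, 0.03 and 0.01. Their muscle and heart counterparts lay below 0. Cox7a1 was 11.04, 11.05, 11.08, 10.90 and 11.00 in control and 10.58, 11.00, 10.82, 10.81 and 10.85 in suspension, a difference of -0.21 ± 0.07 (adjusted p = 0.358) with overlap. Cox6a2 differed by -0.11 ± 0.07 and Cox8b by -0.15 ± 0.08, the latter by -0.09 ± 0.07 without replicate 8. Cox7a2, the ubiquitous partner of Cox7a1, differed by -0.07 ± 0.07 (-0.0043 without replicate 8), and its second probe set by -0.18 ± 0.08. In all 3 pairs the muscle isoform was the lower one in flight, in suspension and between reloaded and control muscle, and 1 of the 3 pairs kept this order between reloaded and suspension. The difference within a pair was not tested, and the last 3 comparisons share arrays.

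**Figure D4:**
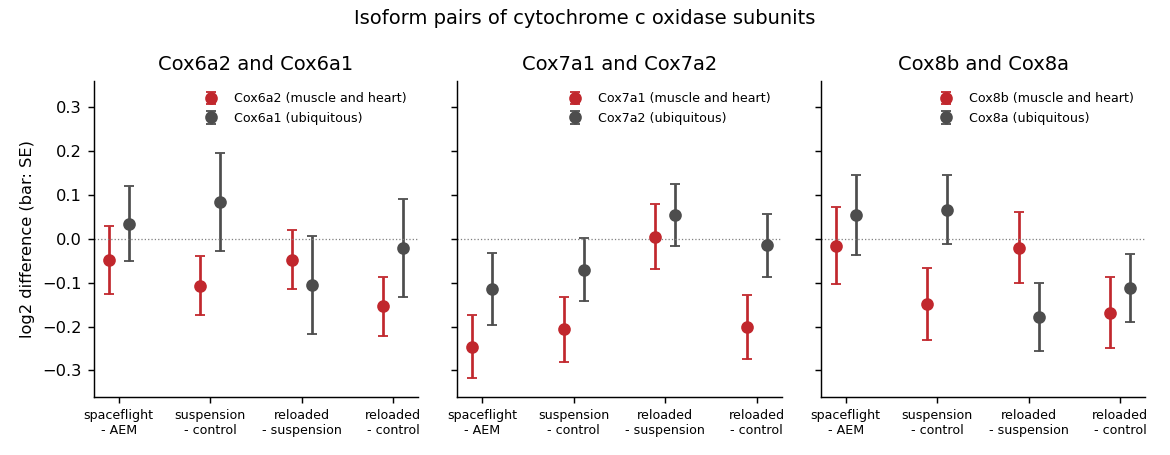
Log2 difference (points, with SE) of the muscle and heart isoform (red) and the ubiquitous isoform (grey) of 3 cytochrome c oxidase subunits in the 4 comparisons of groups. The red point lies below the grey one in 3 of the 4 comparisons for Cox6a2 and Cox8b and in all 4 for Cox7a1, and no test of the difference was made.

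The short return to weight bearing was compared with suspension to ask whether 3.5 hours changed these genes. The complexes as a whole did not shift in one direction. The member median was 0.00 with 39 of 82 below 0, against -0.02 and 58.1% over all genes. None passed the test, where 0.580% of all tested genes did; at an unadjusted limma p under 0.05 there were 3 lower and 3 higher members, against 4.83% and 4.31% of all genes, and limma with a trend and robust estimation also called none. In no member were the groups separate, against 0.624% of all genes lower and 0.832% higher. The medians were 0.03, 0.10, -0.04, -0.02 and 0.01 in complexes I to V. The sign of the member median turned with quantile normalization (-0.02) and without suspension replicate 8 (-0.02). The value of complex II turned to -0.02 without suspension replicates 8 and 9. Leaving out 1 array gave 0.04 to 0.15 in complex II, -0.058 to -0.025 in complex III and both signs in complexes I, IV and V. With all arrays, 0 of 4 members of complex II and 7 of 8 of complex III were below 0. Without suspension replicate 8, 0 members were at an unadjusted limma p under 0.05 in either direction. Leaving out suspension replicate 30 gave 4 members with separate lower groups and 1 with separate higher groups. In the same fit 157 of the 9133 tested genes were separate lower and 125 separate higher, both more than with all arrays.

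Among single members, Ndufaf4 was 7.92, 8.23, 8.46, 8.02 and 8.15 in suspension and 8.42, 8.55, 8.24, 8.33 and 8.41 in reloaded muscle (0.23 ± 0.10, adjusted p = 0.474). The groups overlapped. Cox4i2 differed by -0.23 ± 0.09 (adjusted p = 0.474), Uqcrc1 by -0.15 ± 0.07 and Atp5g3 by 0.13 ± 0.07, all with overlapping groups. Sdhd differed by 0.16 ± 0.10, with reloaded values of 11.12, 11.21, 10.93, 11.11 and 11.09. Its lowest reloaded value, 10.93, lay between suspension replicates 8 and 9 and the other 3 suspension arrays, and the others lay near or above these 3. These reloading differences of single members include suspension replicate 8, and their values without it are not given here.

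Reloaded muscle was also compared with control, which places the members after suspension and reloading against muscle that was never unloaded. This comparison shares its control arrays with the suspension comparison, and its reloaded arrays with the comparison above. Of the 82 members, 75 were below 0, against 58.2% of all tested genes, with a median of -0.10 (7.0% lower on the linear scale) against -0.02. None passed the test, where 0.318% of all genes did; an unadjusted limma p under 0.05 with a lower value was found in 15 members (18.3%), against 4.38% of all genes, and limma with a trend and robust estimation called none. In 20 members (24.4%) all reloaded values lay below all control values, against 1.70% of all genes, and in none above, against 0.942%. With quantile normalization the median was -0.08 and 10 members were separate, against 1.62% of all genes. The 15 members at an unadjusted limma p under 0.05 became 6 without reloaded replicate 16, against 2.89% of all genes. They became 7 without control replicate 1, against 3.65%. Without control replicate 22 or reloaded replicate 18 there were 9, against 3.41% and 3.27%. Without suspension replicate 8, which enters only the spread of this fit, there were 24, against 5.46%. The medians were -0.10 in complexes I and V, -0.11 in complexes II and IV and -0.14 in complex III. The reloaded arrays had a narrower spread than the suspension arrays: the score over all members was -0.10 ± 0.04 (SD, n = 5) in reloaded and -0.11 ± 0.09 in suspension muscle.

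Uqcrc1 of complex III was 11.85, 11.91, 11.92, 11.74 and 11.81 in control and 11.59, 11.58, 11.67, 11.64 and 11.74 in reloaded muscle. The highest reloaded value lay just under the lowest control value, and the difference was -0.20 ± 0.07 (adjusted p = 0.385). The assembly factor Ndufaf3, with reloaded values of 7.54, 7.72, 7.47, 7.78 and 7.82, differed by -0.23 ± 0.08 (adjusted p = 0.438). All 3 muscle isoforms of complex IV had separate groups: Cox7a1 differed by -0.20 ± 0.07, Cox8b by -0.17 ± 0.08 and Cox6a2 by -0.15 ± 0.07. Cox4i1, the ubiquitous form of subunit 4, was 12.51, 12.56, 12.56, 12.57 and 12.55 in control and 12.43, 12.48, 12.47, 12.41 and 12.47 in reloaded muscle. These groups were separate as well, with a difference of -0.10 ± 0.06 (adjusted p = 0.784), while Cox6a1, Cox7a2 and Cox8a overlapped. Slow fibre markers were below 0 in 10 of 10 genes in this comparison too (median -0.30, none called), and their part in the result was not tested.

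Flight and suspension use different control groups, so their values can be set side by side. Of the 82 members, 62 (75.6%) were below 0 in both, 3 were above 0 in both and 17 had opposite signs. Among all tested genes, 28.7% were below 0 in both. With 63 members below 0 in flight and 78 in suspension, the separate counts nearly fix the joint count, which is no further result. Every member of complexes I and V was below 0 in suspension, so their joint counts, 31 of 39 and 12 of 17, repeat those of flight. The difference between the flight and suspension effects, tested over all 23 arrays, passed for no member, where 1.27% of all tested genes passed. At an unadjusted limma p under 0.05 there were 4 members, against 12.2% of all genes. Leaving out 1 array gave 1 to 7, where 4.62% to 7.61% of all genes were lower and 5.39% to 7.72% higher at this p. The member median of this difference was 0.03, 0.0022 without suspension replicate 8 and -0.01 with quantile normalization. The lowest p belonged to Uqcrc2 (-0.27 ± 0.11, adjusted p = 0.272), which was -0.32 in flight and -0.04 in suspension. Sdhd had the opposite order, 0.02 in flight and -0.27 in suspension, a difference of 0.29 ± 0.13 (adjusted p = 0.372). With the AEM and spaceflight labels exchanged, 9 members would pass, against 5.79% of all tested genes.

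**Figure D5:**
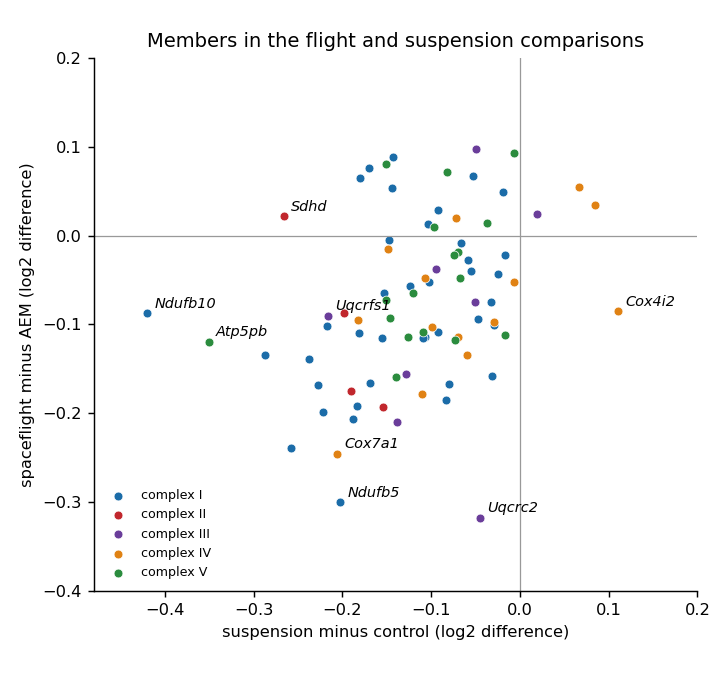
Log2 difference of each tested member (points, coloured by complex) after suspension (x axis) and after spaceflight (y axis). Of the 82 points, 62 lie below 0 on both axes; Uqcrc2 lies low in flight near 0 in suspension, and Sdhd the other way round.

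Genes that work beside the complexes were read from fixed lists. Of the 8 tested genes of ubiquinone synthesis, all 8 were below 0 in flight, in suspension and between reloaded and control muscle, with medians of -0.08, -0.15 and -0.15, and none passed the test. Cycs, which encodes cytochrome c, differed by -0.22 ± 0.07 in flight (adjusted p = 0.104, groups separate) and by -0.17 ± 0.09 in suspension (adjusted p = 0.6). Cyc1, the cytochrome c1 of complex III that the name rule leaves out, differed by -0.12 ± 0.07 and -0.05 ± 0.07. The 5 genes by which other electrons enter ubiquinone had medians of -0.14 in flight and -0.19 in suspension. Assembly factors outside the name rule were below 0 in 16 of 26 genes in flight and 20 of 26 in suspension, with none called.

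Among 10 tested transcription factors and coactivators of respiratory genes, only Ppargc1a passed the test in any comparison of groups. It encodes PGC-1alpha, a coactivator of NRF1, GABP and oestrogen-related receptors on mitochondrial genes. It fell in flight, from 9.46 ± 0.34 in AEM to 8.23 ± 0.14 (SD, n = 4 each), a log2 difference of -1.23 ± 0.14 (limma adjusted p = 0.000322). In suspension it differed by -0.04 ± 0.27 (adjusted p = 0.979), and on reloading it rose by 1.29 ± 0.27 (adjusted p = 0.0261) with overlapping groups and a wide spread in reloaded muscle (8.06 ± 0.92, SD, n = 5). Its flight effect minus its suspension effect was -1.19 ± 0.38 (adjusted p = 0.131). Esrra (-0.15 ± 0.11 in flight, -0.22 ± 0.09 in suspension) and Tfam (-0.02 ± 0.08 in flight) did not pass.

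Many members have more than 1 probe set: 45 of the 84, with 156 probe sets in all. In flight, 51 of the 72 further probe sets of tested members had the sign of the chosen one, and in suspension 61 of 72, with medians of -0.07 and -0.11. The further probe sets thus had medians near those of the chosen ones, while single genes such as Sdha in flight and Ndufab1 in suspension changed sign between probe sets.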

How the data were processed

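Values were the authors' deposited log2 signals of 22690 probe sets on 23 arrays; RMA and MAS5 are named per the submitters' processing notes. For their versions, the method behind this table and any joint normalization: not given in the sources used here. Nothing was renormalized. Genes came from probe sets with 1 symbol in the platform table. Genes above log2 5.83 (the 40th percentile) on at least 4 arrays were tested with limma 3.58.1 in R 4.3.3 (two-sided; Benjamini-Hochberg adjusted p under 0.05 over 9133 genes). The 8 gastrocnemius arrays and the 15 calf arrays were fitted apart, and the difference of effects over all 23. The labels do not say that replicates are separate animals, and a p-value covers the spread between these samples, which may be technical; the number of arrays limits the precision. The members, lists and alternatives were chosen with earlier results of these data known. Members named were those called, the lowest p in each complex and comparison, and a fixed list; of the other lists, called genes and Cycs, Cyc1, Ppargc1a, Esrra and Tfam. The fit was checked on simulated data. Alternatives were other filters, the mean of probe sets, quantile normalization, median centring, a variance trend with robust estimation, array range as a covariate, all arrays in 1 fit, exchanged flight labels, and arrays left out.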

Additional observations from a re-analysis of the deposited data

Results flagged for a closer look

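Single arrays that stood apart from the rest of their group were looked for in 155 groups of values (26 named members and the complex scores), and 10 were found; chance flags about 1 in 20 groups. Suspension replicate 8 was lowest of its group for Atp5pb (10.66 against 11.32 to 11.49) and Cox7a2 (11.88 against 12.20 to 12.24), and highest for Cox8a (10.67 against 10.37 to 10.45). Suspension replicate 30 was lowest for Cox6a2 (12.40 against 12.60 to 12.63). AEM replicate 1 was lowest for Cox4i1 (12.37 against 12.49 to 12.50) and highest for Ndufaf4 (9.03 against 8.71 to 8.72). Spaceflight replicate 8 was lowest for Uqcrc1 (11.79 against 11.84 to 11.85), and control replicate 2 was lowest for Ndufab1 (11.03 against 11.12 to 11.16). Reloaded replicate 33 was highest for Cox6a1 (10.04 against 9.52 to 9.66) and reloaded replicate 15 for Sdhb (12.23 against 12.07 to 12.11).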

How the results depend on the processing

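The 1 member called in flight is set here beside the share of all tested genes called in either direction in the same fit. It became 0 with no filter (3.63% of genes), 2 with a filter at the 60th percentile (6.77%) and 2 with quantile normalization (5.52%). The count was 2 with arrays centred on their median (5.49%), 6 with a variance trend and robust estimation (6.27%), and 3 with all 23 arrays in 1 fit (6.41%). Leaving out 1 array gave 0 to 1, against 3.10% to 5.38% of all genes. It gave 0 without AEM 3, AEM 4 or spaceflight 9, 10 or 11. Ndufb5 was not always among those called: quantile normalization called Uqcrc2 and Cox7a1, the mean of probe sets called Cox7a1 alone and array range as a covariate Uqcrc2 alone. Quantile normalization moved the median of complex III in flight to -0.034, the suspension medians of complexes I, III and IV to -0.049, -0.011 and -0.028, and that of complex V between reloaded and control to -0.050. Averaging probe sets per gene moved complex II between reloaded and control to -0.026 and complex IV in the difference of the flight and suspension effects to 0.013. Array range as a covariate moved complexes I and IV in that difference to -0.025 and 0.001. Without suspension 8 and 9, the suspension median of complex IV was -0.022, the reloading median of complex II -0.024, and complex V in the difference of effects 0.0037. With spaceflight and AEM exchanged, the difference of effects had medians of 0.19, 0.32, 0.21, 0.16 and 0.13 in complexes I to V. In that fit 9 members were called, against 5.79% of all tested genes, and it reversed for Atp5h (0.30), Cox7a1 (0.45), Ndufb5 (0.50) and Uqcrc2 (0.36). The exchange turns the sign of the flight effect by construction, so these values follow from the flight and suspension effects. In the other cases the cause was not tested. No paired analysis was possible because the compared groups share no replicate numbers. Array range differs between the experiments, and suspension replicate 8 has the narrowest range; member differences are near the size of their standard errors.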
